A study of Mus musculus with 8 samples.

Results

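The enzymes of haem synthesis and the iron importer Slc11a2, 9 of 18193 genes named on the array, were followed across 8 Affymetrix mouse arrays of fetal liver haematopoietic stem cells. The genes were Alas1, Alas2, Alad, Uros, Urod, Cpox, Ppox, Fech and Slc11a2, and every probe set whose annotation gives 1 gene symbol among these was taken, which gave 23 probe sets of 34945 with 1 symbol and of 45037 in all. Of these, 14 probe sets of 8 genes were bright enough on average to be tested. The other 9, among them the only probe set of Alas2, were not.

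Cells came from wild-type and Crebbp+/- embryos on a C57BL/6 background, aged 14.5 days post coitum in the description of each sample and 14 in its characteristics. Crebbp encodes CBP, a histone acetyltransferase that acts as a transcriptional coactivator, and Crebbp+/- embryos carry 1 mutant copy whose exact lesion the labels do not give. The sort took cells positive for Sca-1 and AA4.1, negative for lineage markers and with high c-Kit, and combined 15 embryos for each preparation. Each genotype has 2 numbered samples with 2 arrays each, so arrays were averaged within a sample and n = 2 per genotype. Whether the 2 numbered samples of a genotype came from separate litters is not stated, so the spread between them may be partly technical.

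Haem is made by a chain of enzymes that begins and ends in the mitochondrion. The first step joins glycine and succinyl-CoA and is carried out by Alas1 in most cells and by Alas2 in red cell precursors. Alad, Uros and Urod act in the cytosol, where the ring is built, Cpox and Ppox oxidise it in the mitochondrion, and Fech inserts ferrous iron. Slc11a2, also called DMT1, moves ferrous iron across membranes, including out of the endosomes that bring transferrin-bound iron into the cell. Red cell precursors, the most abundant cells of the fetal liver at this age, run the pathway at a high rate, whereas the sort used here removes cells with lineage markers.

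To show what sequence stands before the 2 genes of the first step, which differed in whether they were detected, and before Cpox, the windows of 250 bases before the RefSeq start are given below, read in the direction of the gene from build GRCm38.p6. Capitals mark matches on either strand to a GATA motif (AGATAA or AGATAG or TGATAA or TGATAG) or to the cyclic AMP response element of CREB in its short form (TGACG) or full form (TGACGTCA, which contains the short form). CREB is a factor that recruits CBP, and GATA factors regulate erythroid genes. For Alas1, which has 2 starts in the table, the window of the outer start is shown.
Alas1, chr9:106247955-106248204, minus strand: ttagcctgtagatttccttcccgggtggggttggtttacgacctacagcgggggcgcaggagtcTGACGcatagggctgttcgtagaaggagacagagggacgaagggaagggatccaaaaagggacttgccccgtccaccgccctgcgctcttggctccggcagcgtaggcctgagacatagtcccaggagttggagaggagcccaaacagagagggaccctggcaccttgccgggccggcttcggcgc
Alas2, chrX:150547167-150547416, plus strand: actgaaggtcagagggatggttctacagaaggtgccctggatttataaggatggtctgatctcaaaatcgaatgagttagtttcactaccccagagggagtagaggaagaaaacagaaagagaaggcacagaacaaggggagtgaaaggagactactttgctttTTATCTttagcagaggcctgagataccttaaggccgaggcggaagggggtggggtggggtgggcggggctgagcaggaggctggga
Cpox, chr16:58669958-58670207, plus strand: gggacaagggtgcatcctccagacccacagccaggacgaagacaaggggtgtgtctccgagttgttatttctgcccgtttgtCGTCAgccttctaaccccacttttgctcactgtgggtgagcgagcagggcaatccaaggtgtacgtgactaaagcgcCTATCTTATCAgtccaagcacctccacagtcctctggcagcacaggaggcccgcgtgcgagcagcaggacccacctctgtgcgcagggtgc

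Counted back from the start, with -1 as the base before it, the Alas2 window held a GATA match at -86 to -81 and no CREB element. The Cpox window held 2 GATA matches that overlap by a base, at -91 to -86 and -86 to -81, and a short CREB element at -168 to -164. The outer Alas1 window held a short CREB element at -186 to -182 and no GATA match, and the inner one, not shown, held neither. Among the member windows only that of Cpox held both kinds of match. Windows of 7 of the 9 genes were searched, 10 in all. Fech and Slc11a2 were not among them, so the counts that follow do not cover these genes. The search of member windows left out a chromosome, which the count over all windows did not. The absence of Fech is therefore not shown to be a gap in the RefSeq table. A GATA match was found in 3 of the 10 windows, against 26.5% of all 32851 windows of that length, and a short CREB element in 5 of 10, against 17.8%. The full CREB element was in 0 of 10, against 1.55%. A match is a string of letters and was not tested as a site of binding.

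Values are GCRMA log2 signals, in which a difference of 1 is a 2-fold change, and the filter is the median of all probe set means, 2.72. The dimmest signals, at about 2.2 to 2.4, are called the floor here. Kit and Cd93 (the gene of AA4.1), of the sort, and the blood cell and progenitor genes Ptprc and Cd34 were well above it, at 9.05 or more in every sample, and Ly6a, the gene of Sca-1, had none under its symbol alone. The difference between the 5' and 3' signals of the Gapdh control, a measure of RNA integrity, was -1.22 and -2.59 in wild-type samples 1 and 2 and -0.89 and -1.88 in Crebbp+/- samples 1 and 2. Hepatocyte transcripts varied with the sample as well. Of 11 such genes on the array, 7 were above the filter. The summed linear signal over all 11 was 699 and 1625 in wild-type samples 1 and 2 and 1081 and 1156 in Crebbp+/-. The brightest gene in that sum, Hnf4a, was level, at 9.29 and 9.46 in wild type and 9.54 and 9.39 in Crebbp+/-. The defining genes Alb, Ttr and Apoa1 varied far more. They were lowest in wild-type sample 1, at 2.43, 2.32 and 3.28, and highest in wild-type sample 2, at 7.06, 7.21 and 7.25. Differences are therefore given within each sample number too. The part of hepatocyte RNA in them was not tested. A fit with the Gapdh difference as a covariate gave 0.98 and 1.26 at the 2 brightest Fech probe sets, 1418699_s_at and 1418698_a_at, where it was 1.08 and 1.23 without it.

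Fech had the highest differences between genotypes of the 14 tested probe sets, at 2 of its 4 probe sets, and no member passed the test. In limma, 0 of the 14 had an adjusted p under 0.05, as did 0 of all 22518 probe sets tested (0%), and the lowest adjusted p of any was 0.991. Before adjustment, 2 of the 14 had a limma p under 0.05, both higher in Crebbp+/-, against 1.23% of all tested probe sets in that direction. In the other direction there were 0 of 14, against 3.61%. That count of 2 fell to 0 without Crebbp+/- sample 1 and to 1 without wild-type sample 2. All 4 Crebbp+/- arrays lay above all 4 wild-type arrays for the same 2, both of Fech (3.24% of all tested), and below them for none (3.74%). Both Crebbp+/- samples lay above both wild-type samples for 4 of the 14 (15.6% of all tested) and below for 3 (15.4%). Within both sample numbers the difference was positive for 4 of the 14 (33.9% of all tested) and negative for 5 (28.5%). Over the 14 probe sets, 6 differences were positive and 8 negative, with a median of -0.05 against 0.02 over all tested probe sets. In sorted cells measured in bulk, fewer cells of a type and less RNA per cell cannot be told apart.

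**Figure D1:**
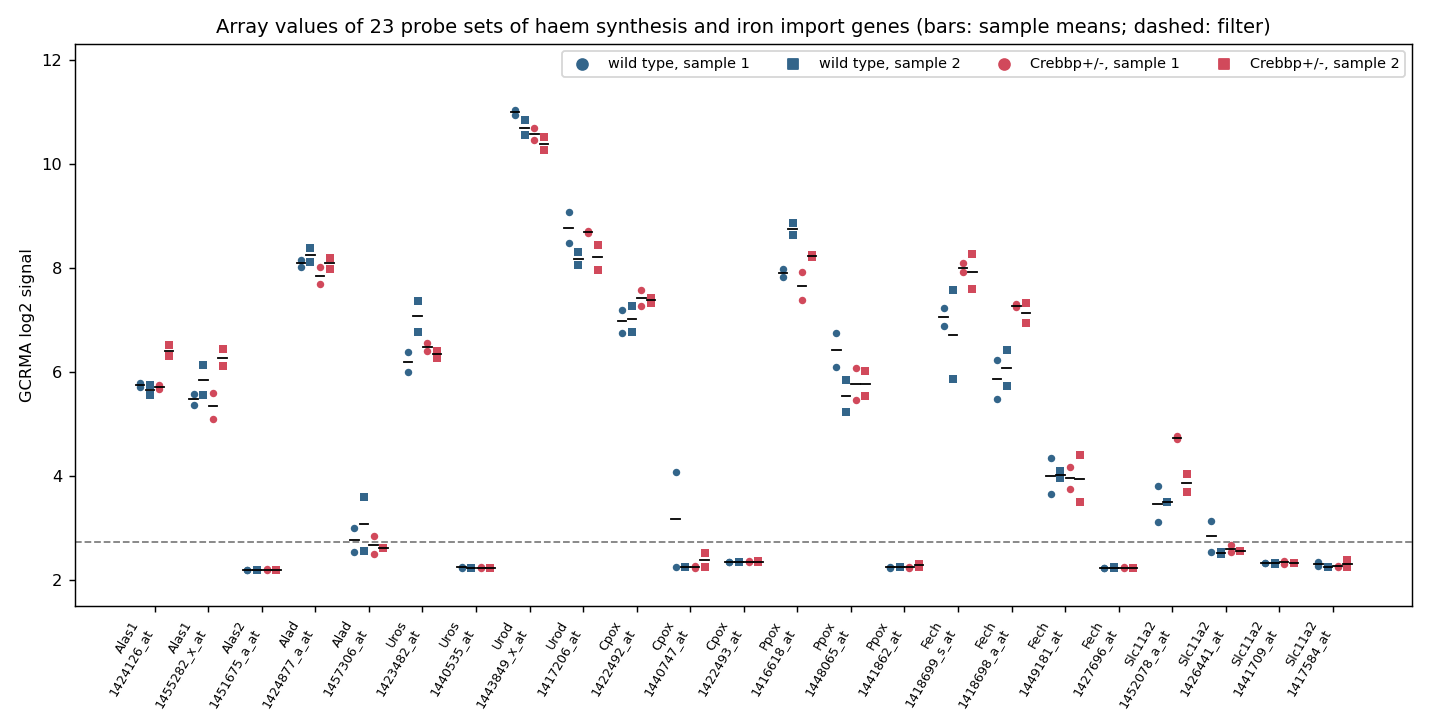
GCRMA log2 signal (vertical axis) of the 23 probe sets in pathway order (horizontal axis); points are arrays, blue for wild type and red for Crebbp+/-, circles for sample 1 and squares for sample 2, black bars are sample means and the dashed line is the filter at 2.72. The Alas2 probe set lies at 2.2 on all 8 arrays, and the 2 brightest Fech probe sets have all Crebbp+/- arrays above all wild-type arrays.

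Of the 2 enzymes that can carry out the first step, only Alas1 was detected. The single Alas2 probe set, 1451675_a_at, read 2.2 on every one of the 8 arrays, with a range of 0.0081 over all of them, so it stayed at the floor in both genotypes. Uros, Cpox, Ppox and Fech, each detected at another probe set, also had a probe set at the floor. A single probe set there does not show that a transcript is absent. Alas1, the rate-limiting housekeeping enzyme, was above the filter on all arrays at both of its probe sets. At 1424126_at the wild-type arrays read 5.70 and 5.78 in sample 1 and 5.76 and 5.55 in sample 2, and the Crebbp+/- arrays 5.67 and 5.74 in sample 1 and 6.51 and 6.31 in sample 2. Crebbp+/- sample 2 was therefore above the other 3 samples, which lay together. The difference was 0.36 (SE 0.35, 95% interval -0.57 to 1.28, limma adjusted p = 0.991), made up of -0.04 in number 1 and 0.75 in number 2. At 1455282_x_at, whose suffix marks probes that may also bind other transcripts, sample means were 5.47 and 5.85 in wild type and 5.35 and 6.27 in Crebbp+/-. Crebbp+/- sample 2 was again the highest, and the difference was 0.15 (SE 0.42, interval -0.95 to 1.25). The arrays of Crebbp+/- sample 2 at 6.11 and 6.44 overlapped a wild-type array at 6.14.

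Alad, which joins 2 molecules of aminolevulinic acid into porphobilinogen, was detected at similar levels in all 4 samples. At 1424877_a_at the sample means were 8.08 and 8.25 in wild type and 7.85 and 8.08 in Crebbp+/-, and the genotypes overlapped. The difference was -0.20 (SE 0.24, interval -0.82 to 0.42), with -0.23 within number 1 and -0.16 within number 2. Its second probe set, 1457306_at, was the dimmest one tested, with a mean of 2.78 just inside the filter and 3 of 8 arrays above it, so its difference of -0.27 (SE 0.19) has an uncertain size. The nearest probe set outside the filter was 1426441_at of Slc11a2, with a mean of 2.63.

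Uros, which closes the ring as uroporphyrinogen III, was set apart by 1 wild-type sample rather than by genotype. At 1423482_at the arrays of wild-type sample 2 read 7.37 and 6.78, while those of wild-type sample 1 read 6.39 and 6.00 and those of Crebbp+/- ran from 6.27 to 6.55. The difference between genotypes was -0.23 (SE 0.39, interval -1.24 to 0.79), and it was 0.28 within number 1 and -0.73 within number 2. The other probe set of Uros, 1440535_at, was at the floor on every array, at 2.23 to 2.26.

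Urod, which removes carboxyl groups from uroporphyrinogen, was lower in both Crebbp+/- samples at 1 of its 2 probe sets, and not past the test. At 1443849_x_at sample means were 10.98 and 10.69 in wild type and 10.57 and 10.39 in Crebbp+/-. The lowest wild-type array, at 10.54, lay below the highest Crebbp+/- array, at 10.68. The difference was -0.36 (SE 0.18, interval -0.84 to 0.12, limma adjusted p = 0.991), with -0.42 within number 1 and -0.31 within number 2. At 1417206_at, which carries no mark of shared probes, the wild-type samples read 8.77 and 8.18 and the Crebbp+/- samples 8.68 and 8.20, with a difference of -0.03 (SE 0.32, interval -0.88 to 0.81). That probe set separated the sample numbers and not the genotypes.

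Cpox, the oxidative decarboxylase of coproporphyrinogen, was higher in both Crebbp+/- samples with little spread between samples, again without passing the test. At 1422492_at sample means were 6.97 and 7.01 in wild type and 7.42 and 7.37 in Crebbp+/-. The arrays within a sample differed by up to 0.49, and the genotypes overlapped at the level of arrays, with wild type reaching 7.26 and Crebbp+/- starting at 7.26. The difference was 0.41 (SE 0.25, interval -0.24 to 1.05, adjusted p = 0.991), with 0.45 within number 1 and 0.36 within number 2. A second probe set listed with the same source record, 1422493_at, was at the floor at 2.35 to 2.36. The remaining one, 1440747_at, was below the filter on 7 arrays and read 4.08 on array 2 of wild-type sample 1, where array 1 of the same sample read 2.25.

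Ppox, which oxidises protoporphyrinogen, gave probe sets that went different ways with the sample number. At 1416618_at sample means were 7.90 and 8.75 in wild type and 7.65 and 8.23 in Crebbp+/-, so sample 2 was the higher in each genotype. The difference between genotypes was -0.38 (SE 0.40, interval -1.42 to 0.66), with -0.25 within number 1 and -0.51 within number 2, and -0.07 with the Gapdh covariate. At 1448065_at wild-type sample 1 stood highest at 6.42, against 5.54 in wild-type sample 2 and 5.77 in both Crebbp+/- samples. Its difference of -0.21 (SE 0.39, interval -1.24 to 0.81) combined -0.65 within number 1 with 0.23 within number 2. The third Ppox probe set, 1441862_at, was at the floor, at 2.24 to 2.31.

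Fech, the ferrochelatase that completes haem, was about 2-fold higher in Crebbp+/- at its 2 brightest probe sets and level at the other detected one. At 1418698_a_at the wild-type arrays read 5.49 and 6.24 in sample 1 and 6.42 and 5.74 in sample 2, and the Crebbp+/- arrays 7.30 and 7.25 in sample 1 and 7.32 and 6.94 in sample 2. Every Crebbp+/- array was above every wild-type array, and the gap between the nearest arrays was wider than at the next probe set. The wild-type mean was 5.97 ± 0.15 (SD, n = 2) and the Crebbp+/- mean 7.20 ± 0.10, which differ by 1.23 (SE 0.27, 95% interval 0.52 to 1.94, adjusted p = 0.991 in limma), or 2.35-fold on the linear scale. It was 1.41 between the samples numbered 1 and 1.05 between those numbered 2.

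At 1418699_s_at, whose suffix marks probes shared between transcripts, the wild-type arrays of Fech read 6.88 and 7.22 in sample 1 and 7.58 and 5.86 in sample 2. The Crebbp+/- arrays read 7.91 and 8.09 in sample 1 and 8.26 and 7.59 in sample 2. The genotypes did not overlap, but the nearest arrays, at 7.58 and 7.59, were almost level, and the 2 arrays of wild-type sample 2 differed by 1.72. Wild type had a mean of 6.88 ± 0.24 (SD, n = 2) and Crebbp+/- one of 7.96 ± 0.05, which differ by 1.08 (SE 0.26, interval 0.39 to 1.76, adjusted p = 0.991 in limma), or 2.11-fold, with 0.95 and 1.21 within the samples numbered 1 and 2. Without array 2 of wild-type sample 2, the lowest array, the difference was 0.65. Of the 14 tested probe sets these 2 alone had intervals that leave out 0, intervals that are not adjusted for the number of probe sets tested.

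The 2 remaining Fech probe sets did not show this difference. At 1449181_at, listed with the same transcript record as the 2 brightest, the wild-type arrays ran from 3.66 to 4.35 and the Crebbp+/- arrays from 3.50 to 4.40, with a difference of -0.06 (SE 0.22, interval -0.63 to 0.51). Its upper bound of 0.51 lies just under the lower bound of 0.52 at 1418698_a_at, but above that of 0.39 at 1418699_s_at. The probe sets were not tested against each other. The fourth, 1427696_at, was at the floor on all arrays, at 2.23 to 2.24. Where these probe sets lie along the transcript was not analysed here.

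**Figure D2:**
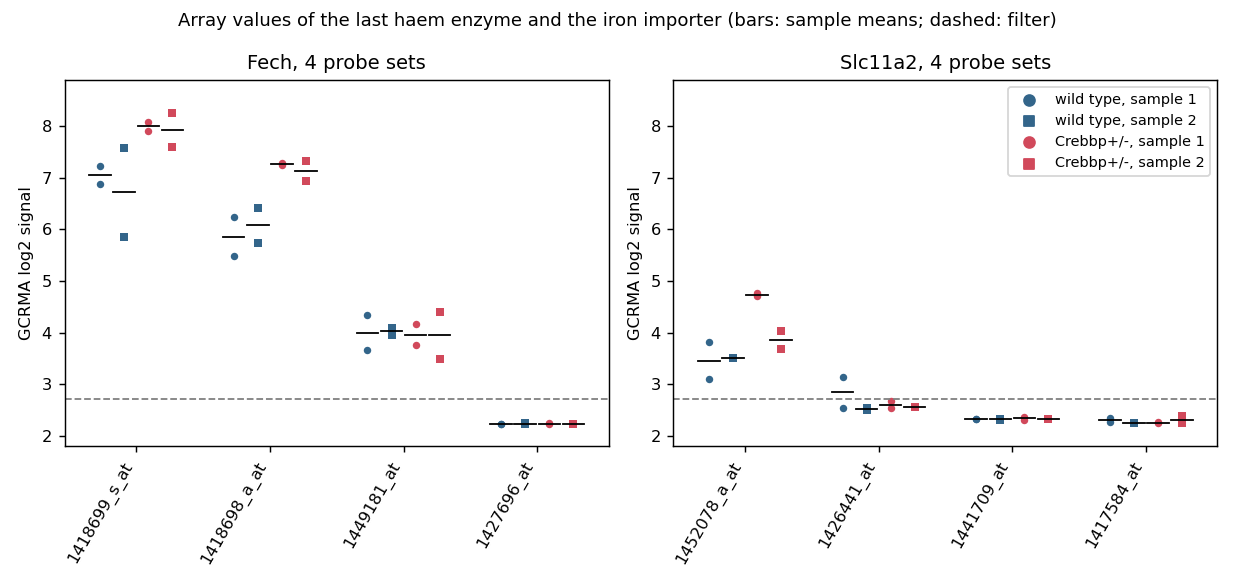
GCRMA log2 signal (vertical axis) of the 4 Fech probe sets (left) and the 4 Slc11a2 probe sets (right); points are arrays, blue for wild type and red for Crebbp+/-, circles for sample 1 and squares for sample 2, with bars at sample means and the filter of 2.72 dashed. The 2 Fech probe sets on the left are higher in Crebbp+/- by 1.08 and 1.23, the next is level, and for Slc11a2 only 1452078_a_at has a mean above the filter.

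Cells of other types can carry haem genes, and their markers were read beside Fech. Of 8 megakaryocyte and mast cell genes on the array, 5 were above the filter. The summed linear signal over all 8, which pools both cell types, was 165 to 166 in wild type and 123 to 146 in Crebbp+/-. The platelet gene Gp9 was the brightest in that sum. Among the defining ones, Cpa3, a mast cell protease, was higher in Crebbp+/- by 2.18 (SE 0.29), with sample means of 2.92 and 3.45 in wild type and 5.27 and 5.44 in Crebbp+/-, Ms4a2, a chain of the IgE receptor, was at the floor at 2.31, and Pf4 and Itga2b, of platelets, differed by -0.17 and -0.03. Gp9, named after its values were seen, read 6.84 and 6.80 in wild-type samples and 5.37 and 5.85 in Crebbp+/- samples, a difference of -1.21 (SE 0.31). Mcpt8, the remaining gene of that list above the filter, differed by 0.20 (SE 0.22). Of 15 erythroid genes on the array 7 were above the filter. The summed linear signal over all 15 was 2549 and 1851 in wild-type samples 1 and 2 and 2393 and 2057 in Crebbp+/-. The erythroid regulators Klf1, at 2.26 to 2.61 over the samples, and Epor, at 2.45 to 2.69, lay below the filter, as Alas2 did. Other genes of this list, also named after their values were seen, were above it. They were Nfe2 at 9.14 to 9.49 over the samples, Tal1 at 8.76 to 9.21, Gfi1b at 6.02 to 6.86, the alpha-globin gene Hba-a2 at 9.12 to 10.21, and Gata1 at 3.37 to 4.32 with a difference of -0.58 (SE 0.28). The globin gene Hbb-b2 was above it too, at 4.65 to 4.68. The globin genes Hba-a1, Hbb-y, Hbb-bh1 and Hba-x had means below it, as did Ermap and Rhag. Slc4a1, the red cell anion exchanger, read 2.46 and 2.52 in wild type and 2.93 and 3.45 in Crebbp+/-, close to the filter. Its highest array read 4.37. It differed by 0.70 (SE 0.24), with 0.47 and 0.94 within the samples numbered 1 and 2. Of the 7 tested erythroid genes, 3 differences were positive and 4 negative. Of 10 macrophage genes 3 were above the filter: Csf1r, at 9.31 to 10.90 over the samples, Cd68, at 5.41 to 6.01, and C1qb, at 2.59 to 3.96. The defining ones were lower, with C1qa and Cd5l at the floor and Adgre1 at 2.36 to 3.07. Over all 10 macrophage genes the summed linear signal was 1002 and 1843 in wild type and 717 and 2023 in Crebbp+/-. Csf1r was the brightest gene in that sum. The part of these cell types in the Fech difference was not tested.

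Slc11a2 was dim, and 1 of its 4 probe sets was above the filter. At 1452078_a_at the wild-type arrays read 3.81 and 3.11 in sample 1 and 3.50 and 3.51 in sample 2, and the Crebbp+/- arrays 4.77 and 4.70 in sample 1 and 4.04 and 3.69 in sample 2. Both Crebbp+/- samples were above both wild-type samples, Crebbp+/- sample 1 by the larger margin, while the lowest Crebbp+/- array overlapped the highest wild-type array. The difference was 0.82 (SE 0.36, 95% interval -0.11 to 1.74, adjusted p = 0.991 in limma), with 1.27 within number 1 and 0.36 within number 2. Without Crebbp+/- sample 1 it was 0.38, and without Crebbp+/- sample 2 it was 1.25. The probe set 1426441_at, listed with the same source record, had a mean of 2.63 with 1 array of 8 above the filter, and 1441709_at and 1417584_at stayed at 2.24 to 2.38.

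**Figure D3:**
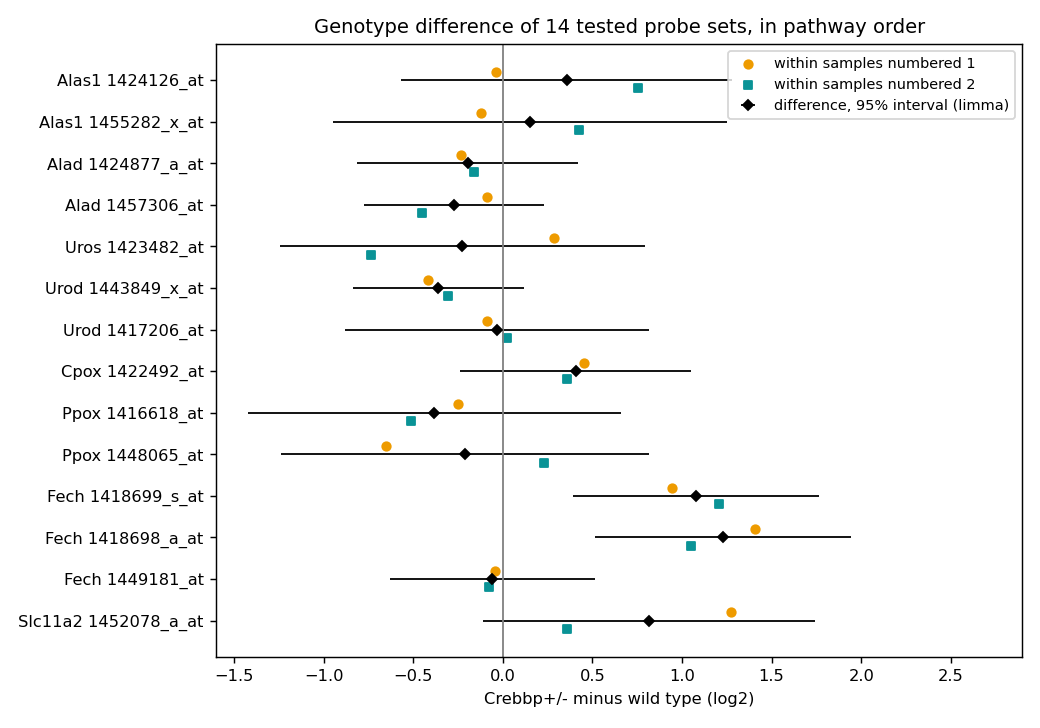
Crebbp+/- minus wild type in log2 (horizontal axis) for the 14 tested probe sets in pathway order (vertical axis); diamonds with bars are the limma difference and its 95% interval, orange circles the difference within the samples numbered 1 and green squares that within the samples numbered 2. Only 1418699_s_at and 1418698_a_at of Fech have intervals clear of 0, and 5 of the 14 probe sets have opposite signs within the 2 sample numbers.

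Wild-type samples differed between sample numbers by about as much as the genotypes differed, and Crebbp+/- samples by less. Over the 14 probe sets, the median size of the difference between samples 2 and 1 was 0.29 in wild type and 0.16 in Crebbp+/-, against 0.31 between genotypes. Over all tested probe sets these medians were 0.35, 0.30 and 0.21. Differences between numbers compare single samples, and those between genotypes compare means of 2 samples. Noise moves such means less, so the sizes are not like measures. The difference between sample numbers had the same sign in both genotypes for 6 of the 14, or 42.9%, against 71.6% of all tested probe sets. Among the 6, Ppox 1416618_at stood higher in sample 2 of each genotype, by 0.85 (wild type) and 0.59 (Crebbp+/-), and Urod 1417206_at differed by -0.60 and -0.49. Alas1 1455282_x_at differed by 0.38 and 0.93. By contrast, Uros 1423482_at had a wild-type difference of 0.88 and a Crebbp+/- one of -0.14, and Slc11a2 1452078_a_at by 0.05 and -0.87. The 2 bright Fech probe sets moved less with the number than with genotype, by -0.34 and 0.22 in wild type and -0.07 and -0.14 in Crebbp+/-.

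**Figure D4:**
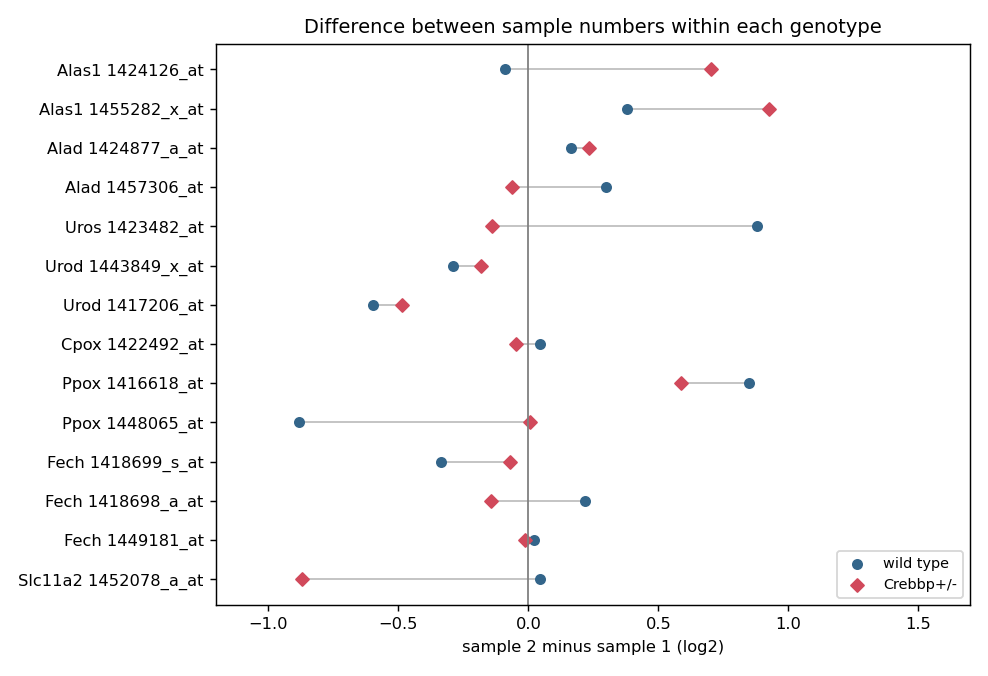
Sample 2 minus sample 1 in log2 (horizontal axis) for the 14 tested probe sets (vertical axis), blue circles for wild type and red diamonds for Crebbp+/-, joined by a grey line. Urod 1417206_at and Ppox 1416618_at moved the same way in both genotypes, whereas Uros and Slc11a2 did not.

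Other genes of haem and iron handling did not pass the test in either direction, and of their list medians that of iron storage and control lay farthest from that of all genes. Taking the brightest probe set of each gene, the 8 tested members had 4 positive and 4 negative differences and a median of 0.08, against 0.04 over all 10600 tested genes, of which 56.9% were positive and whose quartiles were -0.13 and 0.23. Limma called 0 of these 8 and 0 of the members of the lists that follow, none of which had a gene with an unadjusted p under 0.05. Of 13 tested genes for mitochondrial transport and cofactors of the pathway, 5 were positive, with a median of -0.13, or 0.21 and -0.12 within the samples numbered 1 and 2. Abcb10, a transporter of the inner membrane needed for haem synthesis, differed by 0.37 (SE 0.26), and Pgrmc1, a haem-binding protein, by 0.21 (SE 0.19). Of 10 tested genes for iron uptake and transfer 7 were positive, with a median of 0.02. In that list Slc39a8, a metal importer, differed by 0.61 (SE 0.37), and Tfr2, transferrin receptor 2, by -0.79 (SE 0.53).

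Genes of iron storage and control stood at a median of 0.47, with 4 of 5 tested genes positive, and medians of 0.38 and 0.27 within the samples numbered 1 and 2. They included Ncoa4, the receptor that takes ferritin to lysosomes, at 0.57 (SE 0.38), and Ireb2, an iron regulatory protein that binds mRNAs, at 0.47 (SE 0.35). The list median was the value of Ireb2 itself. Fth1, a ferritin gene named after its values were seen, was the 1 negative gene, at -0.07 (SE 0.12). Within each sample number Ireb2 differed by 0.46 and 0.48, and Ncoa4 by 0.38 and 0.77. Both also moved with the sample number, with Ncoa4 at 9.90 and 8.99 in wild-type samples 1 and 2 and at 10.28 and 9.76 in Crebbp+/-. Of 10 genes of iron-sulfur cluster assembly 8 were positive with a median of 0.06, Iscu, the assembly scaffold, at 0.30 (SE 0.19) and Lyrm4, a partner of the sulfur donor, at 0.34 (SE 0.29). Of 11 genes for haem transport, breakdown and sensing 5 were positive with a median of -0.07. Flvcr1, the haem exporter, differed by 0.50 (SE 0.22), with 0.51 and 0.50 within the sample numbers, and Bach1, a repressor released by haem, by 0.18 (SE 0.14).

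**Figure D5:**
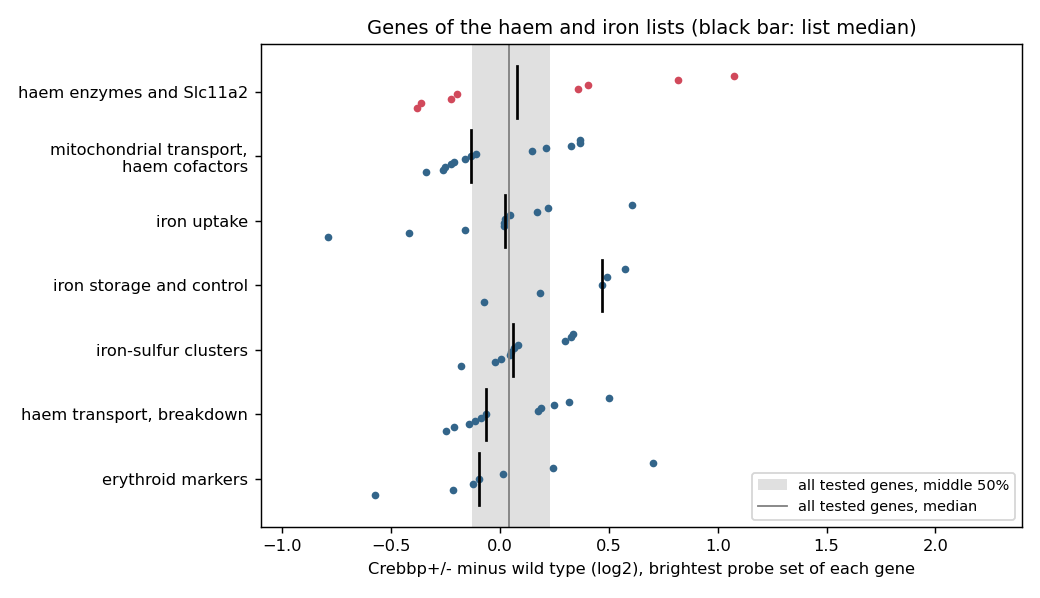
Crebbp+/- minus wild type in log2 (horizontal axis) of the brightest probe set of each tested gene, by list (vertical axis); red points are the 8 tested members, blue points genes of other lists, black bars list medians, and the grey band and line the range between the quartiles and the median of all tested genes. The highest red point is Fech at 1.08, and the median of iron storage and control, 0.47, lies right of the band.

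The probe sets of other genes whose 4 sample values most resembled those of the members were found by the root mean square difference after centring each on its own mean. For Fech 1418698_a_at, whose own values spread by 0.62 on this measure, these were Eda2r at 0.05, Gdpd1 at 0.08 and Eif5a2 at 0.10. Eda2r, a receptor of the tumour necrosis factor family, read 2.55 and 2.79 in wild type and 4.09 and 3.89 in Crebbp+/-. For Alas1 1424126_at the nearest were C920021L13Rik, Pars2 and Arfgef3, each at 0.02, and for Slc11a2 1452078_a_at they were Tex261 and Rbm12b1, both at 0.06, and Ctnnbip1 at 0.07. For Alas2, which was flat, 8802 of 34944 probe sets lay within 0.01, so the measure names no gene as particularly like it. These are descriptions over 4 samples, which share arrays, genotype and sample number.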

How the data were processed

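Total RNA, 12 ng per preparation, was amplified and labelled as biotinylated cDNA with the Ovation system, per the labels' protocols. The authors deposited log2 signals from GCRMA, per the submitters' processing notes. Its version is not given in the sources used here, nor is a genome build. Amplification and background correction can compress or floor dim signals. How precise a value is depends on the small number of arrays.

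The 2 arrays of a numbered sample were averaged, and 22518 of 45037 probe sets with a mean above the median of all means entered a limma 3.58.1 model (R 4.3.3, lmFit, and eBayes with its trend option on) of Crebbp+/- minus wild type. Degrees of freedom were 2 residual and 4.75 after moderation. P-values were Benjamini-Hochberg adjusted over all probe sets tested, and calls needed an adjusted p under 0.05. An exact permutation test of 2 samples against 2 cannot go below 0.33 and was not used. The fit was tested on simulated data. Probe sets were named by GEO's platform annotation, and 64 control probe sets were left out.

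All probe sets of the 9 genes were named, and in each pathway list the genes past the test or else the 2 with the lowest unadjusted p, and in each cell type list its defining markers. The members, lists and tests were chosen with earlier results of these data known. Promoter windows came from RefSeq's GRCm38.p6 table. Other settings tried were arrays as replicates, the sample number as a term, the filter, normalization, a floor, the variance model, the threshold, RNA integrity and the omission of each sample and array.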

Additional observations from a re-analysis of the deposited data

How the results depend on the processing

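No member passed the test under any of the 22 other fits or at an adjusted p under 0.10. Over all probe sets the count was 0 as well, except 1 when the 8 arrays were taken as independent samples. Of 300 recomputed differences of the 14 probe sets, 286 kept their sign and 14 did not. Taking arrays as replicates, a numbered sample or the sample number as a block, another filter or another variance model left every difference unchanged by design. The signs in those fits could not differ, so the count of 286 overstates how far the signs were tried. With quantile normalization Fech 1449181_at differed by 0.017. It was also positive without array 2 of wild-type sample 1 (0.11) and without array 1 of Crebbp+/- sample 1 (0.044). Urod 1417206_at was positive without array 1 of wild-type sample 1 (0.11), of wild-type sample 2 (0.028) and of Crebbp+/- sample 2 (0.085). With a sample or an array left out, the difference ran from -0.31 to 0.61 for Alas1 1455282_x_at, from -0.66 to 0.21 for Uros 1423482_at, from -0.33 to 0.27 for Urod 1417206_at, from -0.81 to 0.041 for Ppox 1416618_at, from -0.65 to 0.23 for Ppox 1448065_at and from -0.28 to 0.17 for Fech 1449181_at. Over all other fits Fech 1418698_a_at stayed between 1.04 and 1.42. Its lowest adjusted limma p was 0.14, when the 8 arrays were taken as independent samples. Fech 1418699_s_at ran from 0.65 to 1.51. These fits reuse the same samples and are not independent of each other. With a sample left out, 4 to 5 of the 14 probe sets had fully separated arrays, fewer arrays being compared, against 2 with all arrays. Over all tested probe sets these shares were 18.2% to 32.9% with a sample left out and 6.98% with all arrays. The Gapdh covariate kept the sign of all 14 differences, but gave -0.03 for Uros 1423482_at, -0.27 for Urod 1417206_at, 0.41 for Alas1 1455282_x_at and -0.43 for Ppox 1448065_at. The median of the mitochondrial list was -0.0018 with the mean of the probe sets of a gene, and that of iron storage and control was 0.40.

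Samples of the 2 genotypes share numbers but nothing in the labels says that a number pairs them. Across tested probe sets, same-numbered samples deviated from their genotype means with a correlation of 0.55. When the number entered the model as a replicate block, 0 members and 0 probe sets in all were called, 4 of the 14 members had an unadjusted p under 0.05, against 16.3% of all tested probe sets, and the lowest adjusted p of a member was 0.14.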
